A study of Mus musculus with 19 samples.

Results

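The genes described here build or modify the chondroitin sulfate matrix of the brain, including the perineuronal net, a lattice that wraps certain neurons. They were 10 named genes out of 48709 in the count files, chosen by name with earlier results of these data known. They were taken by role as 5 core proteins (Acan, Bcan, Ncan, Vcan and Tnr), 3 link proteins (Hapln1, Hapln2 and Hapln4) and 2 enzymes of the sugar chain (Chst3 and Csgalnact1). All 10 passed the filter on low counts, as did 19286 genes in all.

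Tissue was the CA1 region of the hippocampus, microdissected from male wild-type C57B/6J mice and sequenced as polyA RNA, 1 library per sample. The young group (n = 6, 3 months) and the old control group (n = 6, 16.5 months) received control oligonucleotides, and the old anti-miR-mix group (n = 7, 16.5 months) received a mix of inhibitors against the microRNAs miR-148a-3p, miR-146a-5p and miR-181a-5p. Lipid nanoparticles carried the oligonucleotides into the dorsal hippocampus in every group, so the young and old control mice were also injected. The study's methods describe single housing and a water maze test, and whether the sequenced mice took that test was not stated in the sources used here. Libraries held 26653511 to 38908947 reads. Nothing in the labels ties libraries to litters or cages, so p-values measure only the spread between these samples. Old control replicates 5 and 6 were closer to each other than any other pair of libraries (chi-square per degree of freedom 2.18 over 12780 genes, against 6.10 for the next pair). They differed by more than counting error, which cannot tell whether they share a source, and no label says so. They were kept as separate libraries in the main test. A number from 1 to 4 per library, called processing group here, was inferred from how the deposited log2 table differs from the counts. No label gives this number or says what it stands for, and it was treated as a possible technical batch. It was spread unevenly over the groups, with no old control library in group 3. Of 6 markers of CA1 pyramidal neurons none was at 0 in any group (summed CPM 698 to 1003 over all libraries), and those of CA2 and CA3 (139 to 195) and of dentate granule neurons (50.9 to 120) were also above 0. The 3 microRNAs themselves were not analysed here, as polyA libraries do not measure them.

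In a net, lecticans (aggrecan, brevican, neurocan and versican, encoded by Acan, Bcan, Ncan and Vcan) bind the long sugar hyaluronan, link proteins of the Hapln family hold that bond, and tenascin-R (Tnr) ties the lecticans to each other. The lecticans carry chondroitin sulfate chains, which Csgalnact1 helps to begin and which sulfotransferases such as Chst3 decorate at the 6 position of N-acetylgalactosamine. Nets in the hippocampus surround mainly parvalbumin interneurons and CA2 pyramidal neurons, whereas looser matrix of the same proteins is found between cells and, with Hapln2, at the nodes of Ranvier of myelinated axons.

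The 3 microRNAs that the mix inhibits are shown first, since the treatment comparison is about them. RefSeq (GRCm38.p6) gave the mature sequences, in which capitals mark the seed, bases 2 to 8.

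miR-181a-5p: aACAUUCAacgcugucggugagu

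miR-146a-5p: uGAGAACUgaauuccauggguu

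miR-148a-3p: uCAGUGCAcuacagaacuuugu

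No seed is shared among these 3. The DNA letters that pair with each seed are TGAATGT for miR-181a-5p, AGTTCTC for miR-146a-5p and TGCACTG for miR-148a-3p, and they were searched on the sense strand of the longest annotated 3′ UTR of each gene. Of 15337 tested genes with such a UTR, 18.1% held the first, 12.4% the second, 14.9% the third and 35.0% at least 1 of them. Among the matrix genes 4 of 10 held at least 1 match, with 11 matches in all. Tnr and Hapln4 held all 3 kinds (1.43% of the 15337 genes did, as did 15.9% of genes with a UTR within 25% of the length of that of Tnr and 1.06% for Hapln4), Vcan held matches for miR-146a-5p and miR-181a-5p, and Chst3 held 1 for miR-148a-3p. The other 6 (Acan, Bcan, Ncan, Hapln1, Hapln2 and Csgalnact1) held none. A long UTR holds more matches: at least 1 match was found in 89.5% of genes whose UTR was within 25% of the length of that of Tnr, 70.7% for Chst3, 51.5% for Hapln4 and 46.2% for Vcan. The single match of Chst3 and the 4 of Hapln4 are printed with their flanks, 5′ to 3′ on the gene's strand, with the letters that pair with the seed in capitals. These are the gene with the largest age difference of the 10 and a link protein with all 3 kinds of match.

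Chst3, miR-148a-3p (chr10:60183449-60183455, minus): attgacaatgttgtgTGCACTGcaa

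Hapln4, miR-148a-3p (chr8:70088643-70088649, plus): gacacacccctgcggTGCACTGcag

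Hapln4, miR-181a-5p (chr8:70089304-70089310, plus): gagagtagactcgctTGAATGTccc

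Hapln4, miR-146a-5p (chr8:70089629-70089635, plus): ggtaacccaacattcAGTTCTCcag

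Hapln4, miR-181a-5p (chr8:70090490-70090496, plus): ctttgttttttctggTGAATGTgaa

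A match of letters is not evidence of binding, and none of the 4 genes with a match passed the test in the comparison of old anti-miR-mix with old control, as described under that comparison.

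On the genome (GRCm38, GENCODE M21) 4 lectican genes lie beside 4 link protein genes, with no coding gene between them. Acan (chromosome 7, 79053483 to 79115099, plus strand) ends 2 bases from Hapln3. Bcan (chromosome 3, 87987531 to 88000230, minus) lies 21519 bases from Hapln2 (88021750 to 88027583, minus). Ncan (chromosome 8, 70093085 to 70120873, minus) lies 2222 bases from Hapln4 (70083457 to 70090862, plus), and Vcan (chromosome 13, 89655312 to 89742509, minus) lies 43659 bases from Hapln1 (89539796 to 89611652, plus). Tnr (chromosome 1, 159523769 to 159931729, plus), Chst3 (chromosome 10, 60181532 to 60219260, minus) and Csgalnact1 (chromosome 8, 68356781 to 68735146, minus) lie apart from these pairs. The only annotated gene that shares exon sequence with any of the 10 is Gm38039, antisense to Tnr, which was listed at 0 reads.

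Levels were compared between genes only as RPKM, that is reads scaled to library size and to exon length. Bcan stood highest, at 75.6 ± 5.55 RPKM (mean ± SD over 19 libraries), above 98.1% of tested genes. Ncan followed at 29.1 ± 2.09 and Hapln4 at 27.9 ± 2.27, and these neighbours were not apart beyond their spread, since Ncan was the higher of the pair in 14 of 19 libraries. Tnr had 20.6 ± 1.68 RPKM and Hapln2 15.2 ± 2.89, with Tnr above Hapln2 in 16 of 19 libraries and below it in 3 of the 7 old anti-miR-mix libraries. Hapln1 stood at 6.25 ± 0.600 RPKM, Csgalnact1 at 3.18 ± 0.243 and Vcan at 2.58 ± 0.184, each above the next in at least 18 of 19 libraries. Acan, the lectican that marks dense nets, and Chst3 were the lowest, at 0.680 ± 0.0955 and 0.598 ± 0.164 RPKM, and their order differed between the ages. In the 6 young libraries Chst3 was above Acan in each (means of 0.810 and 0.703 RPKM). In the 13 old libraries Acan was above Chst3 in each, with 0.615 against 0.473 in old control and 0.715 against 0.524 in old anti-miR-mix.

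**Figure D1:**
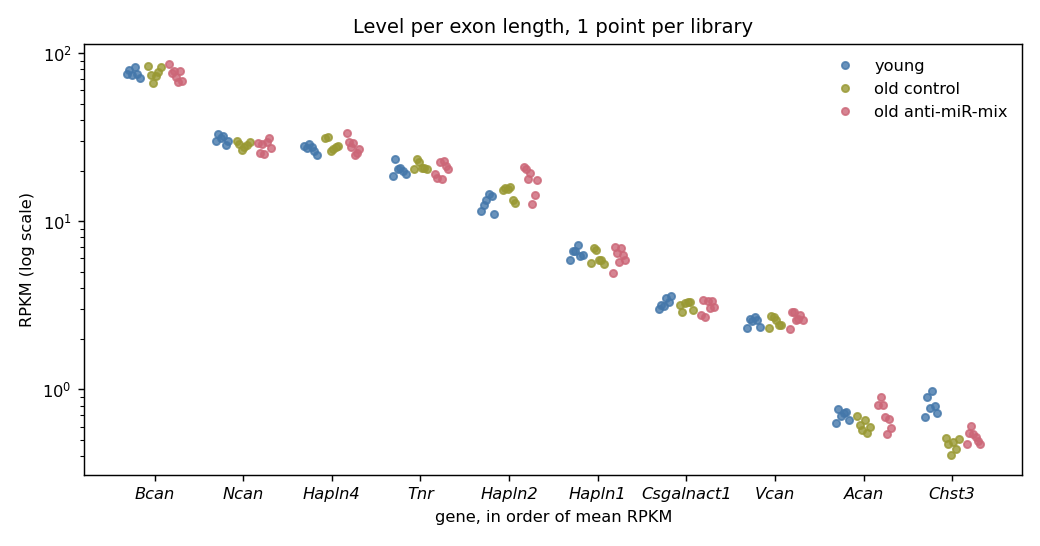
RPKM of each gene on a log axis, 1 point per library, with genes in order of their mean and colours for the 3 groups. Levels run from Bcan at 75.6 RPKM down to Acan and Chst3, of which Acan is the lower in young and Chst3 in both old groups, and the groups overlap for every gene except Chst3, where the 6 young libraries sit above the others.

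The makeup of the lecticans was set by Bcan in every group. Bcan made up 69.0 ± 0.947% of summed lectican RPKM in young, 70.5 ± 1.10% in old control and 70.4 ± 1.99% in old anti-miR-mix (mean ± SD). Ncan took 28.0%, 26.6% and 26.4% in the same order, Vcan 2.30%, 2.37% and 2.51%, and Acan 0.640%, 0.573% and 0.669%, and the ranges of the groups overlapped for all 4. Among the 3 link proteins Hapln2 took 27.6 ± 1.93% in young, 30.0 ± 2.08% in old control and 33.7 ± 2.79% in old anti-miR-mix, and Hapln4 58.4 ± 2.08%, 57.7 ± 2.58% and 54.2 ± 1.69%. These shares are descriptions and were not tested.

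Whether the matrix genes differ with age was asked by old control against young. Chst3, the chondroitin 6-O-sulfotransferase, was 41.5% lower in old control, and it was the only 1 of the 10 genes to pass the threshold (adjusted p under 0.05). Of all tested genes 2.67% passed in this comparison, 1.32% higher and 1.34% lower. Core proteins and link proteins had log2 fold changes between -0.19 and 0.20, and none of these 8 passed. Over the 10 genes the median log2 fold change was -0.03 against 0.01 over all tested genes, and the median of its size was 0.082 against 0.089.

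The log2 CPM (log2 of counts scaled to library size, prior count 2) of Chst3 in the 6 young libraries was 2.18, 2.56, 2.35, 2.68, 2.39 and 2.26. In the 6 old control libraries it was 1.78, 1.65, 1.43, 1.70, 1.55 and 1.74. The highest old control library thus lay below the lowest young one, and the groups did not overlap, as was the case for 2.54% of all tested genes. In CPM the means were 5.26 ± 0.708 in young and 3.07 ± 0.272 in old control, from 124 to 244 and from 70 to 127 reads per library. The fitted log2 fold change was -0.77 (SE 0.09, 95% interval -0.97 to -0.58, adjusted p = 0.000116 in edgeR's quasi-likelihood test). By p-value Chst3 ranked 8 among the 19286 genes and 2 among those that were lower.

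The difference of Chst3 had the same sign inside each processing group that held both ages. It was -0.46 log2 CPM in group 1, -1.0 in group 2 and -0.68 in group 4, with at most 2 libraries a side. Leaving out any 1 library gave values from -0.81 to -0.71. The tissue is bulk, so for Chst3 and every other gene here fewer cells of a type and less RNA per cell cannot be told apart.

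**Figure D2:**
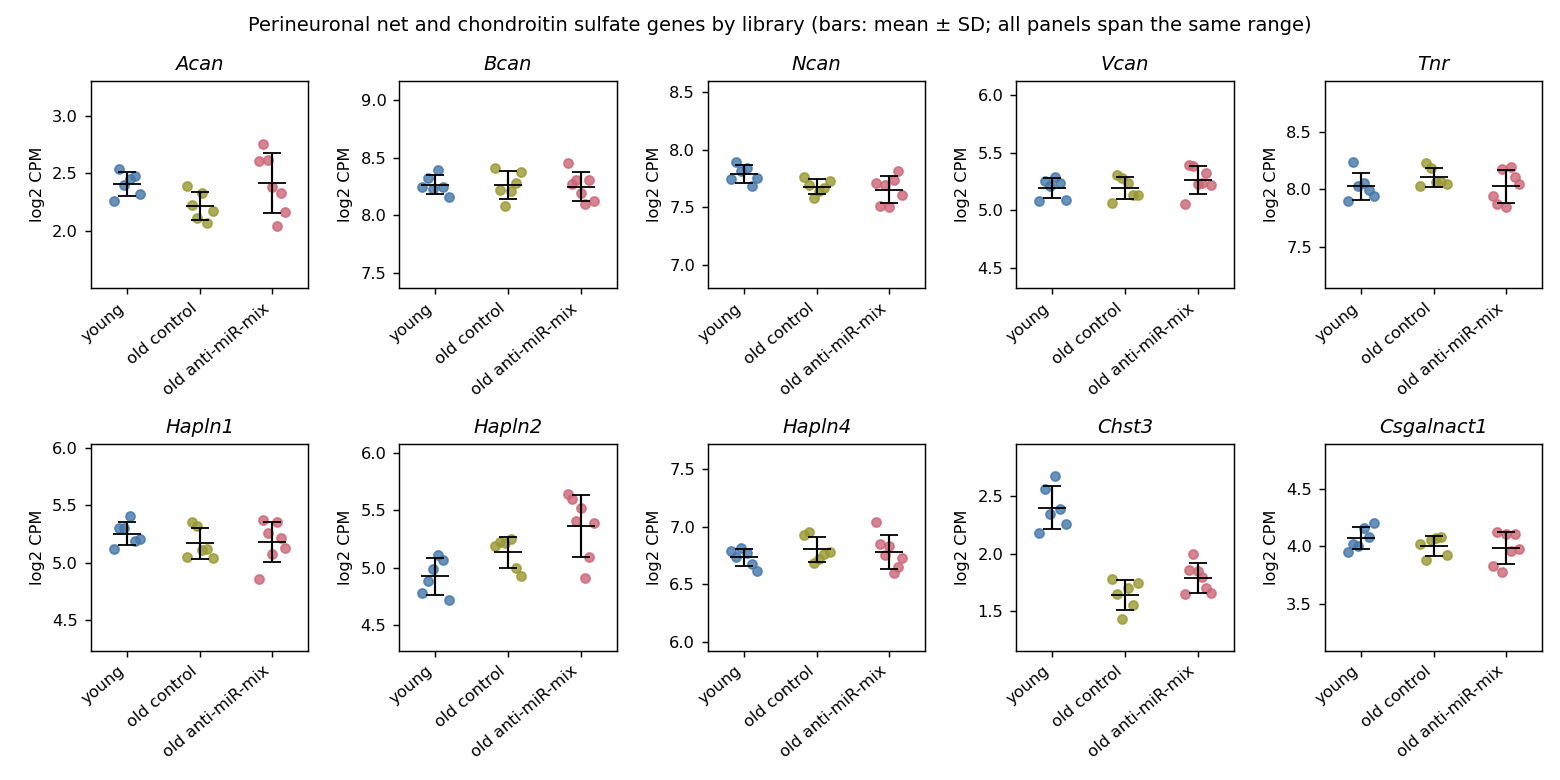
log2 CPM of the 10 genes in every library by group, with each panel spanning the same number of log2 units and bars giving the mean ± SD (n = 6, 6 and 7). Chst3 drops from 2.18 to 2.68 in young to 1.43 to 1.78 in old control and 1.65 to 2.00 in old anti-miR-mix. Hapln2 runs from 4.91 to 5.64 in old anti-miR-mix. The groups overlap for every gene except Chst3, in which young lies above both old groups.

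The other genes differed less with age. Acan had log2 CPM of 2.26 to 2.54 (median 2.42) in young and 2.07 to 2.39 (median 2.20) in old control, with 4 of 6 old control libraries below every young one. Its log2 fold change was -0.19 (95% interval -0.41 to 0.03, adjusted p = 0.349 in edgeR). Ncan, the neurocan core protein, ran from 7.68 to 7.89 (median 7.79) in young and from 7.58 to 7.76 (median 7.68) in old control. Its change of -0.11 (95% interval -0.22 to -0.0042) had an unadjusted p of 0.0424 in edgeR and an adjusted p of 0.256, and 18.1% of all tested genes had an unadjusted p under 0.05.

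For the remaining core proteins the intervals were narrow and held 0. Bcan had a log2 fold change of 0.00 (95% interval -0.13 to 0.13) and Vcan of 0.00 (-0.12 to 0.12), and the upper bound for Bcan was a level 9.1% higher. Tnr, which cross-links the lecticans, had 0.08 (-0.06 to 0.21). Among the link proteins Hapln1 had -0.09 (-0.24 to 0.07) and Hapln4 0.07 (-0.06 to 0.20). Csgalnact1, which adds an early sugar of the chain, had -0.07 (-0.20 to 0.07). A p that misses the threshold does not show that these levels were equal, and the intervals give the differences that the data allow.

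**Figure D3:**
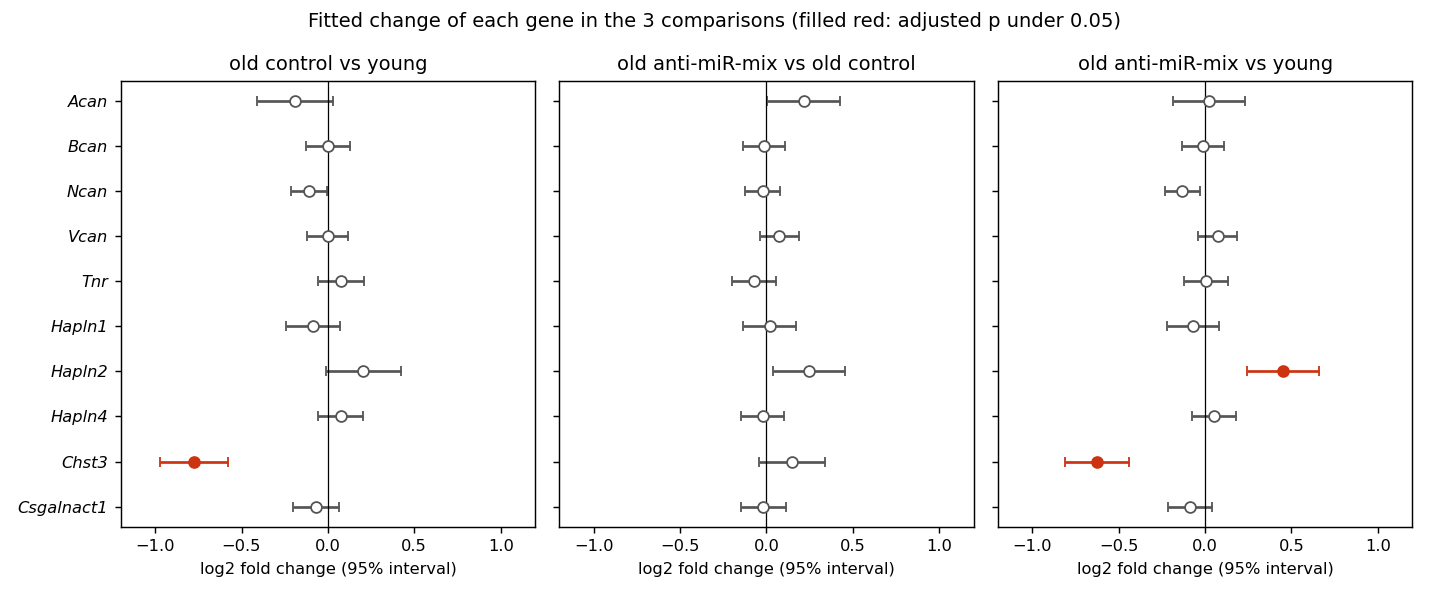
Fitted log2 fold change of each gene with its 95% interval in the 3 comparisons, with filled red points where the adjusted p was under 0.05. Chst3 lies at -0.77 and -0.63 against young and at 0.15 in the treatment comparison, Hapln2 lies at 0.20, 0.25 and 0.45, and the other 8 genes lie within 0.22 of 0.

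Whether blocking the 3 microRNAs in old mice moves these genes was asked by old anti-miR-mix against old control. None of the 10 genes passed the threshold in edgeR, and 2 (Acan and Hapln2) had an unadjusted p under 0.05. DESeq2 called 0 of the 10 as well. Over all tested genes 0.669% passed (129 genes, all higher), and 10.5% had an unadjusted p under 0.05. The median log2 fold change was 0.00 over the 10 genes and 0.00 over all tested genes.

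Acan ran from 2.05 to 2.76 log2 CPM (median 2.38) in old anti-miR-mix against 2.07 to 2.39 in old control, with 3 of 7 treated libraries above every old control library and 1 below all of them. Its log2 fold change was 0.22 (95% interval 0.00 to 0.43, unadjusted p = 0.0463 and adjusted p = 0.465 in edgeR). The spread of Acan was also widest in the treated group (SD 0.260 log2 CPM, against 0.104 in young and 0.123 in old control).

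The 7 old anti-miR-mix libraries had Chst3 log2 CPM of 1.65, 1.86, 2.00, 1.85, 1.79, 1.70 and 1.66, and 4 of 7 exceeded every old control library. All 7 lay below every young library. The treatment difference of Chst3 was 0.15 (95% interval -0.04 to 0.34, adjusted p = 0.612 in edgeR). Within processing groups 1, 2 and 4 it was -0.06, 0.19 and 0.06, with at most 2 libraries a side.

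The genes with seed matches for the inhibited microRNAs gave no treatment difference past the threshold. Hapln4, with 4 matches, had a log2 fold change of -0.02 (95% interval -0.15 to 0.10), and Tnr, also with 4, had -0.07 (-0.20 to 0.05). Vcan, with 2, had 0.07 (-0.04 to 0.19). Of the genes with no match, Bcan had -0.01 (-0.13 to 0.11), Ncan -0.02 (-0.12 to 0.08), Hapln1 0.02 (-0.13 to 0.17) and Csgalnact1 -0.02 (-0.15 to 0.11). The 2 genes with the lowest unadjusted p, Acan and Hapln2, held no match. Their UTRs have 823 and 481 bases, and 23.1% and 14.3% of genes with a UTR within 25% of those lengths held at least 1.

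The treated old mice were also compared with the young ones. This comparison shares the treated libraries with the one above and the young libraries with the age comparison, so its values are given beside theirs and not as separate evidence. In it 2 of 10 genes passed, Chst3 lower and Hapln2 higher, where 6.2% of all tested genes passed, 4.57% higher and 1.63% lower. At an unadjusted p under 0.05 there were 3 of 10 (Ncan was the other), against 19.6% of all tested genes. Chst3 had a log2 fold change of -0.63 (SE 0.09, 95% interval -0.81 to -0.44, adjusted p = 0.000143 in edgeR), and its groups did not overlap, which held for 2.42% of tested genes. In the treatment comparison 0.498% of tested genes did not overlap, and none of the 10 was among them. Inside processing groups 1 to 4 the difference of Chst3 from young was -0.52, -0.80, -0.63 and -0.62, with 1 to 3 libraries a side.

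Hapln2, the link protein of nodes of Ranvier, had log2 CPM of 4.78, 4.89, 4.99, 5.11, 5.06 and 4.72 in young. It had 5.19, 5.22, 5.21, 5.25, 4.99 and 4.93 in old control and 5.64, 5.60, 5.40, 5.51, 4.91, 5.09 and 5.39 in old anti-miR-mix. Old control lay between the others, with 4 of 6 libraries above every young one, and 5 of 7 treated libraries exceeded every library of both other groups. Against young the log2 fold change of old anti-miR-mix was 0.45 (SE 0.10, 95% interval 0.24 to 0.66, adjusted p = 0.00741 in edgeR), a level 36.7% higher. Old control against young gave 0.20 (-0.01 to 0.42, adjusted p = 0.305 in edgeR) and old anti-miR-mix against old control 0.25 (0.04 to 0.45, adjusted p = 0.363 in edgeR), neither past the threshold.

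The size of the Hapln2 difference varied with the libraries compared. Old anti-miR-mix minus young was 0.86 log2 CPM in processing group 1 (1 library a side) and 0.61 in group 2 (2 against 1). It was 0.22 in group 3 (3 against 2) and 0.20 in group 4 (1 against 2). The sign was positive in all 4, and leaving out any 1 library gave 0.41 to 0.52 with an adjusted p of at most 0.0243 in edgeR. Ncan was -0.13 against young (95% interval -0.23 to -0.03, adjusted p = 0.121 in edgeR), near its age value of -0.11. The remaining 7 genes had changes between -0.09 and 0.07 in this comparison.

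Chst3 and Hapln2 were set beside markers of the oligodendrocyte lineage, in which Hapln2 is known to be made. Of 9 markers of mature oligodendrocytes 5 passed as lower in old control than in young and 0 as higher, where 1.34% and 1.32% of all tested genes did. Log2 fold changes were -0.60 for Mal, -0.55 for Mog, -0.49 for Cnp and -0.43 for Mag, which are myelin proteins. Hapln2 had 0.20 in the same comparison. Of 9 precursor markers 2 passed with age, Gpr17 and Bmp4, which mark committed precursors, at -0.91 and -1.10, beside -0.77 for Chst3. Pdgfra, the receptor that marks the precursor pool, had 0.05. Over all 9 the median was -0.15 with age and -0.02 against young, with 3 and 4 of 9 fitted above 0. Against young, Gpr17 (-0.69), Bmp4 (-0.84) and Mal (-0.41) were also lower in old anti-miR-mix, and 0 of the 18 markers passed between old anti-miR-mix and old control (edgeR). In that comparison 9 of 18 had an unadjusted p under 0.05, where 10.5% of all tested genes did, and all 18 were fitted above 0. The median log2 fold change was 0.23 (0.14 to 0.28) for the mature markers and 0.12 (0.01 to 0.26) for the precursor markers, beside 0.25 for Hapln2 and 0.15 for Chst3.

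**Figure D4:**
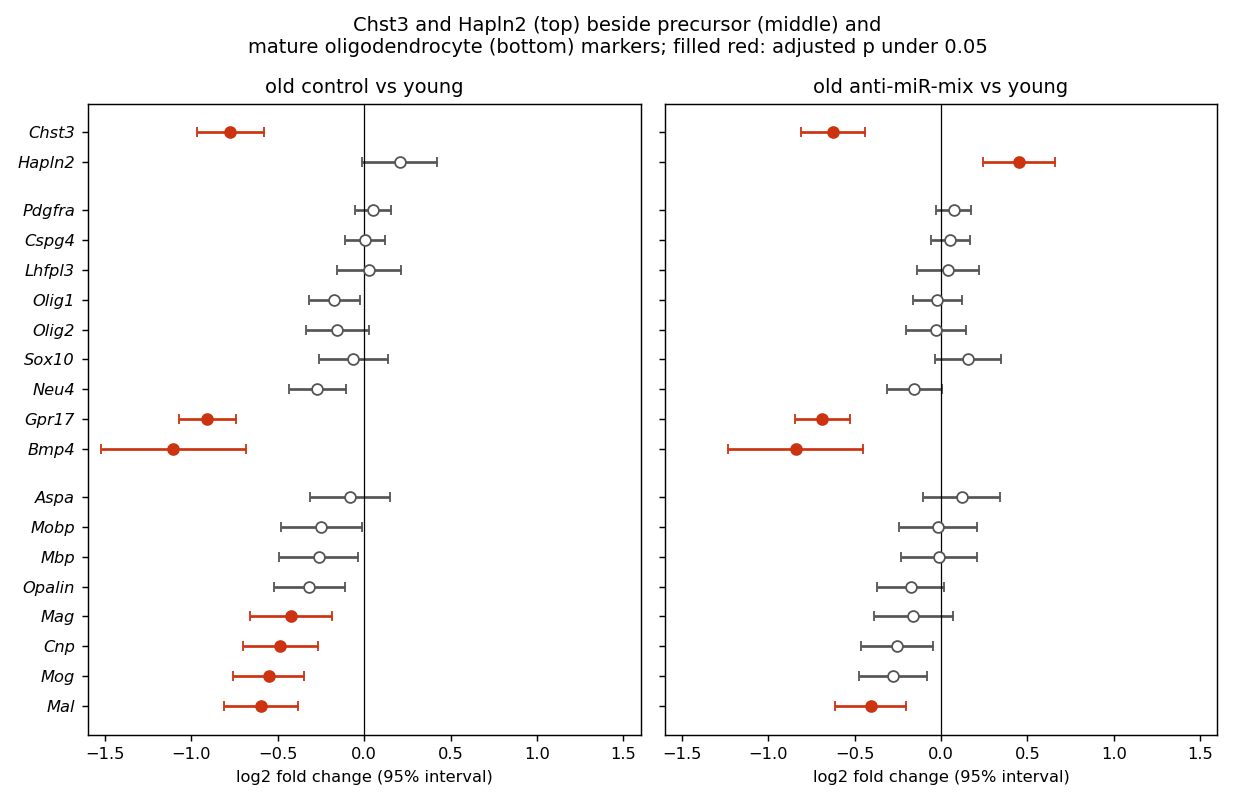
Fitted log2 fold changes with 95% intervals of Chst3 and Hapln2 (top), 9 precursor markers (middle) and 8 of the 9 markers of mature oligodendrocytes (bottom) against young, with filled red points where the adjusted p was under 0.05. Chst3 lies at -0.77 and -0.63 and Gpr17 at -0.91 and -0.69, while the median of the 9 precursor markers is -0.15 and -0.02. Hapln2 lies at 0.20 and 0.45, to the right of the 8 mature markers shown.

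The summed CPM of the 9 mature markers was 7482 to 11848 in young, 6584 to 7814 in old control and 6689 to 9854 in old anti-miR-mix. That of the 9 precursor markers was 375 to 448, 340 to 364 and 360 to 418. No marker of either list was at 0. Of 7 markers of microglia 1 passed as higher with age, 3 with treatment and 6 in old anti-miR-mix against young. In the same order 1.32%, 0.669% and 4.57% of all tested genes passed as higher. The summed CPM of these 7 was 378 to 514 in young, 476 to 602 in old control and 571 to 783 in old anti-miR-mix. The part of these cell types in the differences of Chst3 and Hapln2 was not tested. Of 9 markers of parvalbumin and other inhibitory neurons, of which the parvalbumin cells are those named above as carrying nets, 0 passed in any comparison (edgeR). The median log2 fold change of the 9 was 0.02 with age, -0.07 with treatment and -0.02 against young. In the same order 5, 2 and 3 of 9 were fitted above 0. Pvalb itself had 0.00, 0.06 and 0.05, and its treatment value was the highest of the 9 markers. Their summed CPM was 1216 to 1306 in young, 1272 to 1349 in old control and 1172 to 1365 in old anti-miR-mix. Of 6 markers of CA2 and CA3 pyramidal neurons, of which CA2 cells also carry nets, 0 passed in any comparison (edgeR). Their median log2 fold change was -0.07 with age, 0.18 with treatment and 0.01 against young, with 2, 5 and 4 of 6 fitted above 0. In the same order the values ran from -0.45 to 0.03, -0.01 to 0.80 and -0.23 to 0.44.

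Other genes of the matrix were taken from 6 lists with 67 genes, of which 66 were tested (Chst13 did not pass the filter). With age 0 of 66 passed in edgeR and 14 had an unadjusted p under 0.05, near the 18.1% of all tested genes. DESeq2 called 1, Adamts4. This protease of lecticans had 44.1 ± 7.44 CPM in young and 34.4 ± 3.62 in old control, a log2 fold change of -0.36 (adjusted p = 0.0626 in edgeR and 0.0205 in DESeq2). With treatment 1 of 66 passed, the gelatinase Mmp2, where 0.669% of all tested genes did. Against young 3 of 66 passed, all higher in old anti-miR-mix, where 6.2% of all tested genes passed and 4.57% passed as higher. The medians of the 66 were 0.02, 0.00 and 0.01 on the log2 scale for age, treatment and old anti-miR-mix against young.

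The enzymes that build the chain were the most even list. Of 12 genes of chain synthesis 0 passed in any comparison, and their age values lay between -0.05 for B3gat3 and 0.14 for Xylt1, the enzyme that starts the chain by adding xylose to the core protein. Of 11 tested genes of sulfation 0 passed with age or treatment and 1 passed against young. Chst7, a second 6-O-sulfotransferase, had an age value of -0.09 and the 4-O-sulfotransferases Chst11 and Chst12 had 0.10 and 0.09, none past the threshold. The log2 ratio of Chst3 to Chst11 in RPKM was -4.00 ± 0.162 in young, -4.87 ± 0.101 in old control and -4.61 ± 0.138 in old anti-miR-mix. The young libraries overlapped neither old control nor old anti-miR-mix. With Chst7 added to Chst3 and Chst12 to Chst11 the log2 ratio was -3.76 ± 0.165, -4.28 ± 0.149 and -4.08 ± 0.172. For this wider ratio young (lowest -3.91) overlapped old anti-miR-mix (highest -3.84) but not old control (highest -4.17). These ratios are descriptions and use the same libraries as the test of Chst3.

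Chst14, the dermatan 4-O-sulfotransferase, was the sulfation gene that passed, with 1.70 ± 0.193 CPM in young, 1.90 ± 0.136 in old control and 2.37 ± 0.301 in old anti-miR-mix. Its log2 fold change against young was 0.48 (SE 0.10, adjusted p = 0.00455 in edgeR), and against old control 0.31 (adjusted p = 0.198).

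Of 14 proteases and inhibitors Mmp2 was the gene that passed with treatment. It had 2.66 to 3.30 CPM in young, 2.27 to 3.24 in old control and 3.46 to 6.70 in old anti-miR-mix, so the 7 treated libraries lay above the other 12. The log2 fold change was 0.79 against old control (SE 0.13, adjusted p = 0.00773 in edgeR) and 0.65 against young (SE 0.13, adjusted p = 0.00272). With processing group as a factor the treatment value was 0.68 and no longer passed (adjusted p = 0.101), nor with old control replicates 5 and 6 as 1 library as well (0.165). Markers of other cell types were set beside it. All 6 markers of meningeal fibroblasts were fitted above 0 with treatment (0.19 to 0.78, median 0.45) and 0 passed, with summed CPM of 36.4 to 132 in young, 35.4 to 63.8 in old control and 34.2 to 125 in old anti-miR-mix. Against young their median was -0.27. Of 8 astrocyte markers 7 were fitted above 0 with treatment and 0 passed, while Gfap (0.77) and Slc1a3 (0.20) passed against young, with summed CPM of 5926 to 6474, 6494 to 7188 and 6213 to 7753. No marker of these lists was at 0, and their part in the difference of Mmp2 was not tested.

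Mmp14, the membrane-bound protease that activates Mmp2, had 8.93 ± 0.755 CPM in young and 11.3 ± 1.71 in old anti-miR-mix (log2 fold change 0.33, adjusted p = 0.0236 in edgeR), and lost the call without young replicate 1 (adjusted p = 0.0548), without young replicate 4 (0.0611) and with a replicate block (0.0559). Mmp3 had a fitted value of 3.25 against young but did not pass (adjusted p = 0.0921 in edgeR). Leaving out 1 library gave 2.42 to 5.58, the highest without young replicate 3, where it passed (adjusted p = 0.0242 in edgeR), and its CPM ran from 0.180 to 23.2 within the treated group.

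**Figure D5:**
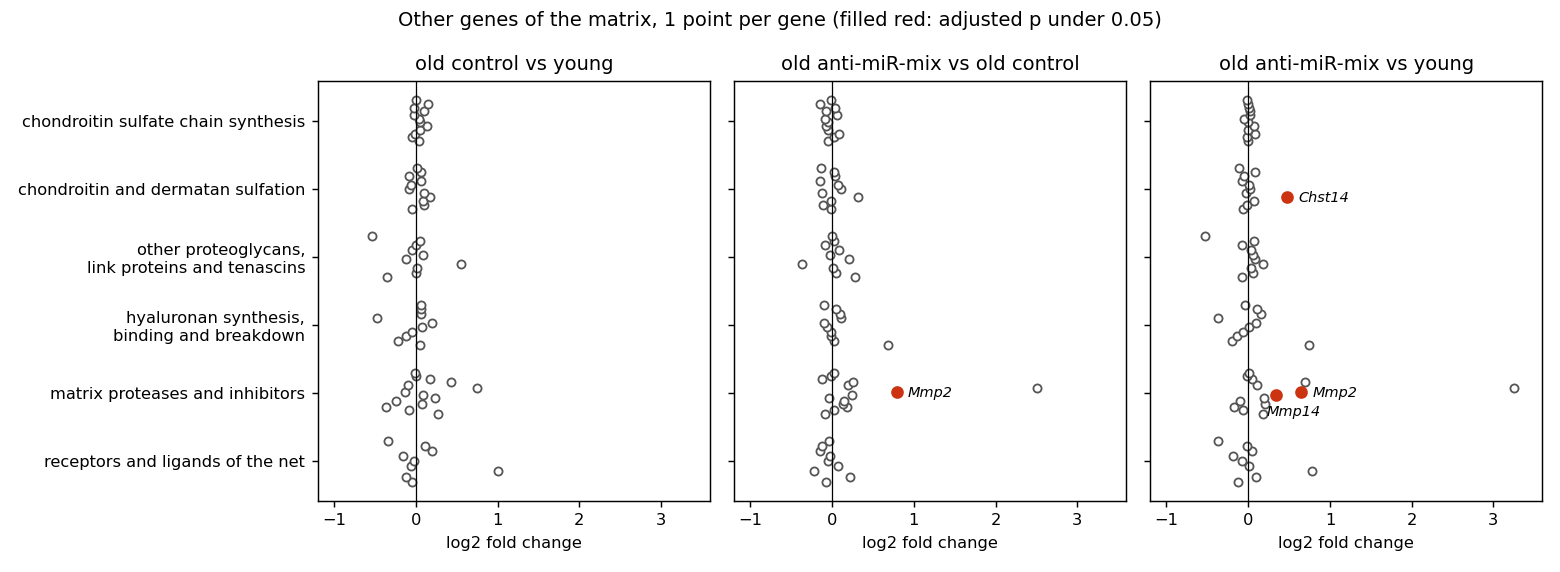
log2 fold changes of the 66 other matrix genes in the 3 comparisons, 1 point per gene in 6 lists, with filled red points and names where the adjusted p was under 0.05. Chst14, Mmp2 and Mmp14 are the genes that passed, Mmp2 at 0.79 and 0.65, and the point at 3.25 is Mmp3, which did not pass.

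Of 10 other proteoglycans, link proteins and tenascins, 10 genes of hyaluronan and 9 receptors and ligands, 0 passed in any comparison in edgeR. Hapln3, the neighbour of Acan, had -0.12 with age, and Tnc, the tenascin of developing and injured tissue, had -0.54 (adjusted p = 0.271). The hyaluronan receptor Cd44 had 0.74 and the synthase Has2 0.01 against young. Ptprs, a receptor for chondroitin sulfate chains, had -0.03 with age and -0.05 with treatment.

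Members were also compared by how they varied among libraries of the same group, as correlations of log2 CPM after subtracting group means over 19 libraries. These are descriptions, since the libraries share depth, base composition and the mix of cells. Vcan and its neighbour Hapln1 varied together (Pearson r = 0.84, Spearman rho = 0.82), the highest of the 45 pairs, and Acan with Hapln2 was next (r = 0.71). The other neighbour pairs within the 10 genes were weaker, with r of 0.29 for Bcan and Hapln2 and 0.01 for Ncan and Hapln4. Acan with its neighbour Hapln3 was not compared. Vcan and Hapln1 are poor in GC, with 43.7% and 39.8% of the bases of the longest transcript. The median was 49.6% over the 12759 genes with more reads that were used for the slope. The deviations of Vcan and Hapln1 had r of -0.55 and -0.67 with the slope of each library on gene GC content. Bcan, at 60.7% GC, had r of 0.88 with that slope. The ranges of the slope overlapped among the 3 groups, and with the slope as a term the same numbers of the 10 genes passed in each comparison (1, 0 and 2).

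The other genes whose pattern was most like that of each gene were found in the same way. Hapln2 was closest to Sept4 (r = 0.92) and Tprn (0.91), Chst3 to Prex1 (0.83) and Hmg20b (0.80), and Acan to Naprt (0.85) and Neu4 (0.80). Tnr was closest to Nfib (0.94) and Zeb2 (0.93), Hapln4 to Lynx1 (0.94), Bcan to Abhd17a (0.92) and Grin2c (0.90), and Ncan to Prmt8 (0.92) and Amer3 (0.91). Vcan was closest to Nectin3 (0.90) and Jmjd1c (0.87), Hapln1 to Mfap3l (0.89) and Pabpc1 (0.88), and Csgalnact1 to Isoc1 (0.88) and Idi1 (0.86).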

How the data were processed

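Raw counts per gene in 19 libraries were made by the authors with STAR 2.5.2b (mm10) and featureCounts of Subread 1.5.1 from 50-base single-end reads, after FastQC 0.11.5, and deposited without normalization. Strand and multimapping settings were not given in the sources used here. A deposited log2 table of 18761 genes, normalized and adjusted by the authors, served for the processing group number of each library and for 1 alternative. Groups came from the labels. A gene was kept when 50% or more of the libraries had 5 or more reads for it, and was then tested with edgeR 4.0.16 (TMM, quasi-likelihood test, all 3 groups in 1 fit, R 4.3.3), with Benjamini-Hochberg adjustment over 19286 genes and a threshold of 0.05. The study used DESeq2, which was run as an alternative (1.42.0), as were limma 3.58.1 on the deposited log2 values, other size factors, no filter, processing group, a replicate block and leaving out each library. Old control replicates 5 and 6 as 1 library together with processing group, and a GC term, were added after seeing the data. Exon lengths, GC content and UTRs came from GENCODE M21 and matched 48349 of 48709 genes. The genes and lists were chosen with earlier results of these data known. Named were the 10 genes, listed genes past the threshold in any comparison and at most 3 others per list, and the 2 genes most like each of the 10 among those with a mean of at least 20 reads. The edgeR step was tested on simulated data. A count of reads without molecular identifiers gives counting error only. Single values of 2 genes that this rule would name are not reported here.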

Additional observations from a re-analysis of the deposited data

How the results depend on the processing

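The counts of the 10 genes past the threshold (1, 0 and 2) held under all 10 alternatives and 19 leave-one-out fits, with Chst3 between -0.78 and -0.61 for age under the alternatives (adjusted p at most 0.00263) and Hapln2 between 0.41 and 0.45 against young (adjusted p at most 0.0218). Counts over all genes moved more. For age 514 genes became 914 with DESeq2, 323 with no filter, 305 with old control replicates 5 and 6 as 1 library, 223 with processing group as a factor as well, and 212 (without young replicate 4) to 691 when 1 library was left out. For treatment 129 became 267 with DESeq2, 9 with processing group as a factor, 33 with replicates 5 and 6 as 1, 6 with both, 249 with a replicate block, and 23 (without old control replicate 5) to 247 (without old anti-miR-mix replicate 1). Of the 66 other matrix genes 1 passed for age with DESeq2 and with the replicate block (Adamts4), 0 to 1 when 1 library was left out, and 0 for treatment with processing group as a factor, alone or with replicates 5 and 6 as 1. The cause was not tested. Signs turned only for genes that did not pass and lay near 0. For Bcan these were 0.024 for age with the GC term, for treatment 0.0093 (processing group as a factor), 0.010 (limma), 0.00073 (replicates 5 and 6 as 1), 0.024 (both) and 0.0081 (replicate block), and 0.0040 against young with the block. For Vcan and age they were 0.022 (processing group as a factor), 0.0055 (as a linear term), 0.010 (replicates 5 and 6 as 1) and 0.035 (with the factor). For treatment Hapln1 had -0.052 and -0.065 with the factor, without and with replicates 5 and 6 as 1, and Hapln4 had 0.012 (limma) and 0.0083 (both). Against young Tnr had -0.0018 (RLE size factors), -0.0018 (DESeq2), -0.00023 (no filter), -0.0099 (factor) and -0.0087 (both). Leaving out 1 library gave, for treatment, -0.052 to 0.017 for Bcan, -0.043 to 0.013 for Csgalnact1, -0.014 to 0.063 for Hapln1, -0.072 to 0.0079 for Hapln4 and -0.051 to 0.00091 for Ncan, for age -0.031 to 0.040 for Bcan and -0.024 to 0.024 for Vcan, and against young -0.036 to 0.086 for Acan, -0.047 to 0.016 for Bcan and -0.022 to 0.054 for Tnr.

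Replicate numbers were not used as pairs in the main test, and the values here cannot exclude pairing. Correlations of same-numbered samples' deviations ran from -0.06 to 0.33 for age, -0.19 to 0.36 for treatment and -0.33 to 0.28 against young. In the same order 2, 2 and 0 of 6 samples were best matched to their own number. The replicate block changed no call among the 10 genes, while over all genes the treatment calls went from 129 to 249. Chst3 and Acan had 70 to 244 and 113 to 236 reads per library, the fewest of the 10 genes.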
